A study of Mus musculus with 12 samples.

Results

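Transcript levels of 10 regulators of the integrated stress response were followed in mouse embryonic palatal shelves, from which the secondary palate is built. The members were chosen by symbol: Atf4, Atf5, Atf3, Ddit3, Cebpb, Trib3, Nupr1, Chac1, Ppp1r15a and Sesn2, which make up 10 of the 56691 genes in each library. They occupy 11 rows, because the symbol Ddit3 stands on a second gene ID with a length of 105 bases. RNA was taken at gestational day 12 in 12 libraries, 3 for each of 4 groups. Knockout shelves were conditional knockouts of Dnmt1 (genotype DNMT1 KO), the maintenance DNA methyltransferase, and were untreated. AzadC shelves were wild type and exposed to 5-aza-2'-deoxycytidine, a cytosine analogue that traps DNA methyltransferases, and vehicle shelves were wild type and given its vehicle. Control shelves were wild type and untreated. A library was a pool of shelves from 2 embryos and a group came from 6 embryos of several litters, per the labels' protocols, whereas the design text of the series counts 3 pooled animals. Which Cre drove the deletion, which exons it removed, and the dose, route and time of AzadC were not given in the sources used here.

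In the integrated stress response, several kinases phosphorylate the initiation factor eIF2 when a cell lacks amino acids, accumulates misfolded protein, holds double-stranded RNA or is short of haem. General translation then falls, while mRNAs with short open reading frames in their leaders, Atf4 foremost, are translated better. The ATF4 protein and its partners switch on amino acid transporters, tRNA synthetases and further regulators, among them CHOP (from Ddit3) and the eIF2 phosphatase subunit GADD34 (from Ppp1r15a), which closes the loop. The transcript data here show mRNA levels only and hold no measure of eIF2 phosphorylation or of translation.

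Dnmt1 itself had 201, 180 and 191 CPM (expected counts scaled by library total and TMM factor) in the 3 knockout libraries, against 286, 278 and 258 CPM in control libraries, so transcript remained in the knockout (edgeR quasi-likelihood test, log2 change -0.52, adjusted p = 0.000369). Its level was 408, 482 and 411 CPM in AzadC libraries, against 452, 451 and 448 CPM in vehicle libraries. Against vehicle, the log2 change of Dnmt1 in the knockout was -1.24 (edgeR adjusted p = 1.62e-07). The 2 wild-type references differed too, with vehicle above control (log2 change 0.72, edgeR adjusted p = 0.000286). Library totals ran from 12640536 to 33113790 expected counts. All 18 palatal mesenchyme markers examined were detected in every group, and their summed level was 1775 to 2382 CPM in knockout, 2196 to 2393 CPM in AzadC, 1896 to 2387 CPM in vehicle and 2343 to 2949 CPM in control libraries. Of these 18, 5 fell against control and 0 rose (log2 changes of -0.98 for Meox2, -0.84 for Foxf2, -0.76 for Twist1, -0.50 for Pdgfra and -0.35 for Prrx2), and Foxf2, Twist1 and Pdgfra fell against vehicle as well. Over all 17335 genes tested, 7.83% were higher and 6.43% were lower against control at an adjusted p under 0.05 in edgeR. Against vehicle 6.70% were higher and 4.13% were lower. In bulk shelves a shift in the share of a cell type and a change of RNA per cell cannot be told apart. The libraries differed in such markers: 15 of 15 tested macrophage markers rose in the knockout against control and against vehicle, with a summed level over 16 markers of 377 to 412 CPM in knockout, 166 to 181 CPM in AzadC, 105 to 129 CPM in vehicle and 80.3 to 113 CPM in control libraries. Of the 16, 1 was at 0 in all AzadC libraries and 1 in all control libraries. All 10 tested cartilage markers fell against control and 4 fell against vehicle, with a summed level over 12 markers of 367 to 612 CPM in knockout, 1076 to 1466 CPM in AzadC, 1457 to 1594 CPM in vehicle and 972 to 2847 CPM in control libraries. Of 13 tested skeletal muscle markers, 9 rose against control and 0 against vehicle, with a summed level over 14 markers of 185 to 1088 CPM in knockout, 41.4 to 180.2 CPM in AzadC, 46.1 to 436 CPM in vehicle and 7.59 to 108 CPM in control libraries. Of 13 epithelium markers, 0 passed against control and 1 rose against vehicle. Of 10 endothelium markers, 2 fell against control and 1 against vehicle. Of 11 red cell markers, 0 passed against control and 3 fell against vehicle. Of 9 tested neuron markers, 1 rose and 1 fell against control, and 2 rose against vehicle. The part of these differences in the values of the stress regulators was not tested.

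The promoters of the regulators differ in which known elements they hold. The composite element bound by dimers of an ATF and a C/EBP protein (TGATGNAA, searched on both strands) was found in the window of 250 bases before to 50 bases after the start site for 4 of the 10 members, Atf3, Trib3, Nupr1 and Chac1. Of all 32851 windows of that length in the RefSeq promoter table (GRCm38.p6), 3.97% hold it. The cAMP response element (TGACGTCA, both strands) was found in the Ppp1r15a window alone among the members and in 1.79% of all windows, and the endoplasmic reticulum stress response element (CCAAT, 9 bases of any kind, then CCACG, both strands) in no member window and 0.119% of all windows. The matches do not overlap each other. Atf5 has windows at 2 start sites, and all 10 members matched the table. The 4 windows with a composite element are shown because they belong to 4 of the 5 members with the largest knockout folds described below, and that of Ppp1r15a because it is the tested member whose level did not pass the test. Capitals mark the match, read 5′ to 3′ on the strand of the gene, on which the composite element appears as its reverse complement.
Chac1, chr2:119350992-119351291, plus strand: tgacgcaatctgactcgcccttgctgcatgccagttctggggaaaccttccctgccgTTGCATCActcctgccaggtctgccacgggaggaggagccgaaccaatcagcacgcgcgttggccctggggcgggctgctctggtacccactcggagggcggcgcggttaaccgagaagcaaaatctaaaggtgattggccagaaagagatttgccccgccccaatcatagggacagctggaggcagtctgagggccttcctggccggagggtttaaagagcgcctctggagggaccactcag
Atf3, chr1:191183284-191183583, minus strand: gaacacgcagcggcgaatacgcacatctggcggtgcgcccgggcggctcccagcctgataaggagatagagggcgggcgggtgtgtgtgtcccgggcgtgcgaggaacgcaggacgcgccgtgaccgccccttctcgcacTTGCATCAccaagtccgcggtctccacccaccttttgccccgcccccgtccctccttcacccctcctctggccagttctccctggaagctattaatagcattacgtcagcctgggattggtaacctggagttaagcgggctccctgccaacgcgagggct
Nupr1, chr7:126625421-126625720, minus strand: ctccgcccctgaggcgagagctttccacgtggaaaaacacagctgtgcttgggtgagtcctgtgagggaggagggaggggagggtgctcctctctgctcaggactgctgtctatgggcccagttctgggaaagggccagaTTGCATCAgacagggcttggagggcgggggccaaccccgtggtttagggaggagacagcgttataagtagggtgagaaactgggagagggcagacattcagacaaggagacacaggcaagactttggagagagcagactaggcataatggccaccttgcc
Trib3, chr2:152344011-152344310, minus strand: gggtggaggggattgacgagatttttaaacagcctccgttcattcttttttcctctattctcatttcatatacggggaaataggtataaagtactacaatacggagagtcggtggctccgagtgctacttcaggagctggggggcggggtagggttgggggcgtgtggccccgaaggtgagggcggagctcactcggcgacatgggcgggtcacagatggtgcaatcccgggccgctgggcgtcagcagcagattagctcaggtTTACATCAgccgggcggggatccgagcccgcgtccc
Ppp1r15a, chr7:45526219-45526518, minus strand: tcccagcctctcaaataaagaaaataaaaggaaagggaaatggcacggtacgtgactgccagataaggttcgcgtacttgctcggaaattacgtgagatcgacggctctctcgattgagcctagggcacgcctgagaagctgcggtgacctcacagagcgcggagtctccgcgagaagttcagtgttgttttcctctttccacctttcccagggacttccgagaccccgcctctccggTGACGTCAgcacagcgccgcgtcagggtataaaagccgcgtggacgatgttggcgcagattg

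The composite element lies 193 to 186 bases before the start site of Chac1, 110 to 103 bases before that of Atf3 and likewise 110 to 103 bases before that of Nupr1. In Trib3 it lies 15 to 22 bases after the RefSeq start, at chr2:152344039-152344046. GENCODE M21 places that gene at chr2:152337422-152344032 on the minus strand, so by that annotation the match lies before the gene. The matched letters are TTGCATCA in Chac1, Atf3 and Nupr1 and TTACATCA in Trib3. A match describes letters in the window and does not show that a factor bound there, and elements outside the window were not searched. Since Dnmt1 maintains methylation at CpG, the number of CpG in each window was counted as well. It was 6 in Nupr1, 17 in Chac1, 21 in Trib3, 22 in Atf4 and in Ddit3, 23 in Sesn2, 26 in Ppp1r15a, 27 in Atf3 and 50 in Cebpb, and 32 and 8 in the windows of Atf5, beside a median of 7 over all windows. No methylation measurement was analysed here.

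**Figure D1:**
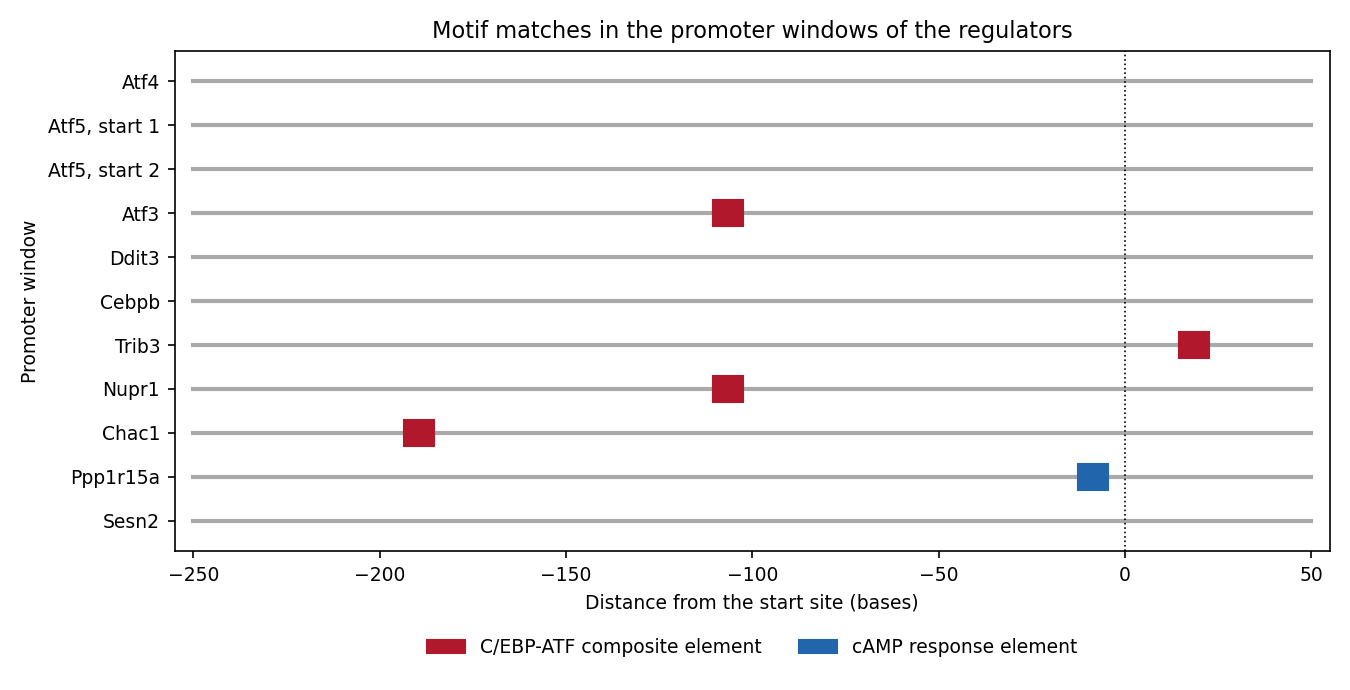
Motif matches in the promoter windows of the 10 regulators, with distance from the RefSeq start site in bases on the horizontal axis and 1 line per window (Atf5 has 2). Red blocks mark the C/EBP-ATF composite element in Atf3, Trib3, Nupr1 and Chac1, and the blue block marks the cAMP response element in Ppp1r15a 12 to 5 bases before the start.

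Against control shelves, 8 regulators rose in the knockout and none fell: Atf4, Atf5, Atf3, Ddit3, Trib3, Nupr1, Chac1 and Sesn2. Of the 11 rows, 9 passed the filter on low counts (0.467 CPM in at least 3 libraries) and were tested, Cebpb and the short Ddit3 row did not, and Ppp1r15a was tested without passing. Over all 17335 genes tested, 7.83% were higher and 6.43% were lower at the same threshold, an adjusted p under 0.05 in edgeR's quasi-likelihood test with Benjamini-Hochberg adjustment over all of them. The median log2 change was 2.07 over the 9 tested members and -0.0026 over all genes. Chac1 passed the filter mainly through its knockout level, since only 1 library outside the knockout reached it, so its inclusion is not independent of the difference. Over the 8 members at the filter level in at least 3 libraries outside the knockout, 7 rose and the median log2 change was 1.65. For 8 of the 9 tested members, all 3 knockout libraries lay above all 9 other libraries, which held for 7.02% of all genes. The libraries of a group came from separate pools of embryos, and p-values measure the spread between these pools.

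**Figure D2:**
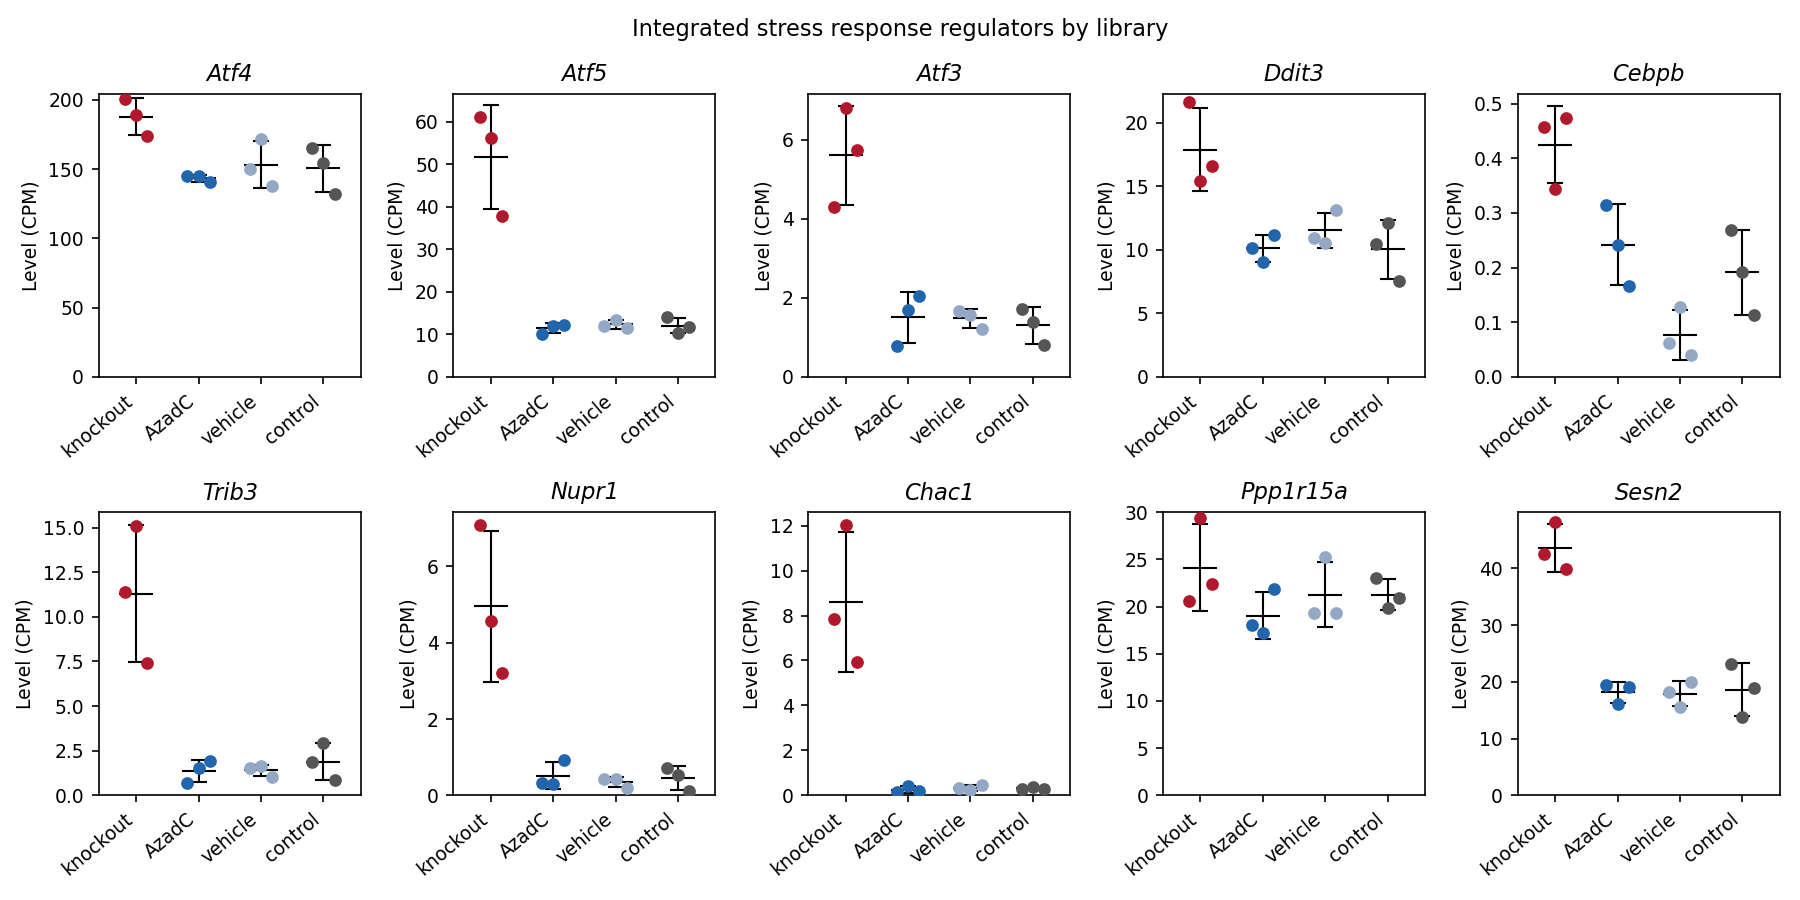
Level of each regulator in CPM by library, for knockout, AzadC, vehicle and control groups, with points for the 3 libraries and bars for the mean ± SD. Knockout points stand clear of the other groups for Atf5, Sesn2, Trib3, Nupr1, Chac1 and Atf3, whereas Atf4 knockout libraries reach down to 174 CPM beside a highest other value of 172 CPM, and Ppp1r15a overlaps in all groups.

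Atf4, the transcription factor whose translation is the central output of the pathway, changed least among the members that passed. It had 200.4, 189 and 174 CPM in knockout libraries, 145, 145 and 140.4 CPM in AzadC, 150.4, 172 and 138 CPM in vehicle and 165, 155 and 132 CPM in control libraries. The 3 knockout libraries were the highest of the 12, by a narrow margin. Its mean was 188 ± 13.4 CPM in knockout shelves and 151 ± 17.0 CPM in control shelves (SD, n = 3 each), a 1.25-fold difference with a 95% interval of 1.09 to 1.43 and an adjusted p of 0.0352 by edgeR. Against vehicle the fold was 1.22 (1.07 to 1.40) and did not pass (edgeR adjusted p = 0.0601). The call against control was lost when only the knockout and control libraries were fitted (edgeR adjusted p = 0.0631), and without knockout library 1 (0.125), knockout library 2 (0.102), control library 2 (0.0755) or control library 3 (0.0907). The gene lies at chr15:80255184-80257541 on the plus strand (mm10, GENCODE M21).

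Atf5, a factor of the same family that is likewise controlled by upstream reading frames in its leader and is known for inducing mitochondrial chaperones, rose 4.28-fold. It had 61.1, 56.2 and 37.9 CPM in knockout libraries, 10.1, 12 and 12.3 CPM in AzadC, 12.1, 13.5 and 11.5 CPM in vehicle and 14, 10.4 and 11.8 CPM in control libraries. Even the lowest knockout library was well above the highest other library, and the 9 other libraries lay close together. The mean was 51.7 ± 12.2 CPM in knockout shelves and 12.1 ± 1.83 CPM in control shelves (SD, n = 3 each), with an interval of the fold from 3.32 to 5.51 and an adjusted p of 3.86e-06 by edgeR, the smallest among the members. Atf5 (chr7:44812256-44816658, minus strand, mm10) shares 82 exon bases with Nup62 and Il4i1 on the other strand. Nup62, a nuclear pore gene, rose by a log2 change of 0.25 (edgeR adjusted p = 0.0158), and the strand setting of the counting was not given in the sources used here.

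Atf3, an early stress-induced repressor and activator that ATF4 induces, was a low transcript everywhere outside the knockout. Knockout libraries had 4.29, 6.79 and 5.75 CPM, AzadC libraries 0.788, 1.70 and 2.04 CPM, vehicle libraries 1.67, 1.57 and 1.21 CPM and control libraries 1.73, 1.38 and 0.799 CPM. The knockout did not overlap any other group, and AzadC, vehicle and control overlapped each other. The fold against control was 4.21 (2.48 to 7.13, edgeR adjusted p = 0.00175). Atf3 lies at chr1:191170296-191218039 on the minus strand.

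Ddit3 encodes CHOP, a C/EBP-family factor that pairs with ATF4 and is known for promoting cell death under lasting stress. Its main row (chr10:127290774-127296288, plus strand) had 21.6, 15.5 and 16.6 CPM in knockout libraries, 10.2, 9.03 and 11.2 CPM in AzadC, 10.9, 10.5 and 13.1 CPM in vehicle and 10.4, 12.1 and 7.53 CPM in control libraries. All knockout libraries were higher than the other 9, and knockout library 1 was the highest. The fold against control was 1.77 (1.35 to 2.33, edgeR adjusted p = 0.00894). Against vehicle it was 1.55 (1.18 to 2.04, edgeR adjusted p = 0.041), and that call was lost on leaving out any single library of those 6, with adjusted p-values from 0.054 to 0.15. The second Ddit3 row held 2 counts in knockout library 2 and none elsewhere, did not pass the filter, and without the filter had a log2 change of 2.80 against control (SE 2.08, edgeR adjusted p = 0.528).

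The mean transcript length that RSEM, which divides reads among isoforms, assigned to Ddit3 was 864 to 879 bases in knockout, 776 to 828 bases in AzadC, 832 to 839 bases in vehicle and 814 to 847 bases in control libraries. The knockout range lay above that of every other group, which describes the estimated mixture of annotated transcripts of 890, 969 and 600 bases, the transcript of 969 bases being annotated as a retained intron. Ddit3 also shares 68 exon bases with Mars1 on the other strand. Mars1, a methionyl-tRNA synthetase, had 110 CPM in knockout and 84.2 CPM in control shelves on average (log2 change 0.38, edgeR adjusted p = 0.00197).

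Cebpb, a C/EBP factor known for regulating inflammatory and fat-cell genes and a partner of ATF4 at composite elements, was near the limit of detection. It had 0.457, 0.344 and 0.474 CPM in knockout libraries, from 10, 6.81 and 7.65 expected counts. AzadC libraries had 0.315, 0.242 and 0.167 CPM, vehicle libraries 0.0619, 0.129 and 0.0403 CPM, and control libraries 0.268, 0.191 and 0.114 CPM, the last from 9.21, 5 and 2 expected counts. The knockout values lay above the others, but with so few counts no difference was detectable at this depth: without the filter the log2 change was 1.08 against control (SE 0.82, edgeR adjusted p = 0.535) and 2.32 against vehicle (SE 0.91, edgeR adjusted p = 0.124). Its single-exon gene (chr2:167688915-167690418, plus strand) shares 312 of 1504 exon bases with Tmem189 (Peds1) on the other strand, which had 37.2 CPM in knockout and 36.6 CPM in control shelves.

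Trib3 and Nupr1 are stress-induced modulators of the response. Trib3 is a pseudokinase that binds ATF4 and AKT and is induced by ATF4 and CHOP. It had 11.4, 15.1 and 7.41 CPM in knockout libraries, 0.709, 1.51 and 1.90 CPM in AzadC, 1.55, 1.64 and 1.05 CPM in vehicle and 1.85, 2.95 and 0.856 CPM in control libraries. The lowest knockout value exceeded the highest other value, and the spread within control was wide relative to its mean of 1.89 ± 1.05 CPM (SD, n = 3). Trib3 rose 5.88-fold against control (3.17 to 10.9, edgeR adjusted p = 0.00127). Its locus is chr2:152337422-152344032 on the minus strand.

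Nupr1, a small chromatin-associated stress protein, had 7.08, 4.58 and 3.20 CPM in knockout libraries, 0.315, 0.303 and 0.935 CPM in AzadC, 0.433, 0.418 and 0.202 CPM in vehicle and 0.716, 0.536 and 0.114 CPM in control libraries. It was low outside the knockout, with group sums of 302 counts in knockout, 37 in AzadC, 25 in vehicle and 40 in control libraries. The fold against control was 10.2 with a wide interval of 4.46 to 23.2 (edgeR adjusted p = 0.0014). Nupr1 lies at chr7:126623249-126630861 on the minus strand.

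Chac1 had the largest fold of the members. It encodes an enzyme that degrades glutathione and is a known target of ATF4, ATF3 and CHOP. It had 7.86, 12 and 5.93 CPM in knockout libraries, 0.158, 0.424 and 0.200 CPM in AzadC, 0.309, 0.225 and 0.484 CPM in vehicle and 0.268, 0.383 and 0.285 CPM in control libraries. The lowest knockout library was far above the highest of the other 9, from counts of 516 summed over knockout, 15 over AzadC, 24 over vehicle and 24 over control libraries. The fold against control was 27.1 (14.8 to 49.6, edgeR adjusted p = 5.92e-06). Its locus is chr2:119351229-119354381 on the plus strand.

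Sesn2 encodes a leucine sensor upstream of mTORC1 and is known as a target of both ATF4 and p53. It had 42.4, 48.2 and 39.9 CPM in knockout libraries, 19.4, 16.1 and 19 CPM in AzadC, 18.1, 15.6 and 20 CPM in vehicle and 23.1, 13.8 and 18.8 CPM in control libraries. The 3 knockout libraries were close to each other and none overlapped another group. The fold against control was 2.34 (1.83 to 2.98, edgeR adjusted p = 0.000295). It lies at chr4:132492032-132510501 on the minus strand.

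Ppp1r15a encodes GADD34, which brings the phosphatase to phosphorylated eIF2 and so ends the response. It had 20.6, 29.4 and 22.4 CPM in knockout libraries, 18.1, 17.2 and 21.8 CPM in AzadC, 19.3, 25.2 and 19.3 CPM in vehicle and 23.1, 19.8 and 20.9 CPM in control libraries. Knockout and control overlapped, and knockout library 2 alone was high. The fold was 1.13 with an interval of 0.905 to 1.42 (edgeR adjusted p = 0.479), so a rise of the size seen in Ddit3 lies outside that interval. Its RSEM length ran from 1469 to 2350 bases across the 12 libraries, from annotated transcripts of 2333, 2809 and 389 bases, so its level per length depends on how isoforms were estimated. Its constitutive counterpart Ppp1r15b rose slightly, to 123 CPM in knockout shelves against 104 CPM in control shelves (log2 change 0.24, edgeR adjusted p = 0.0288).

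**Figure D3:**
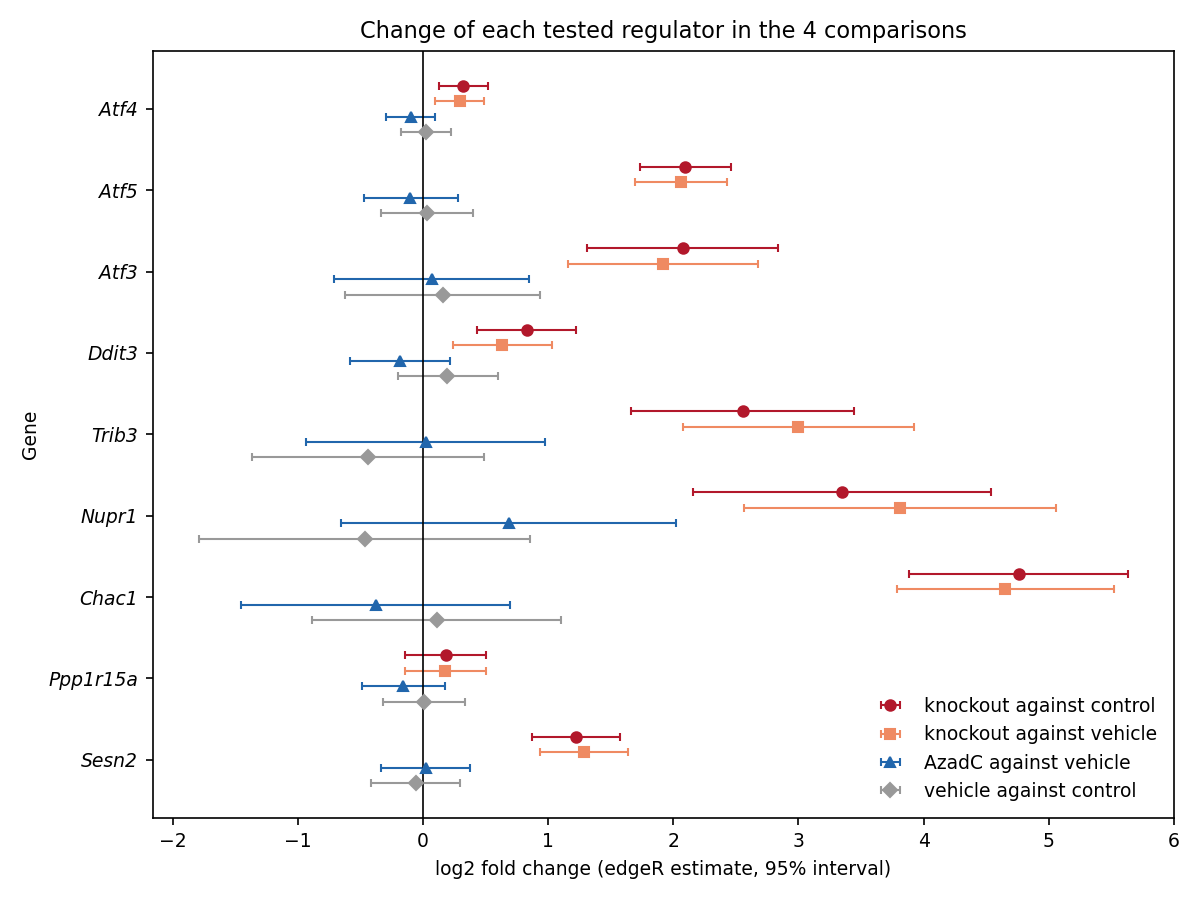
Log2 fold change of each of the 9 tested regulators with its 95% interval in 4 comparisons: knockout against control, knockout against vehicle, AzadC against vehicle and vehicle against control. The intervals of knockout against control and against vehicle lie to the right of 0 for 8 genes, and those of AzadC against vehicle and vehicle against control include 0 for all 9. The intervals are not adjusted for the number of genes, and Atf4 did not pass against vehicle after adjustment. Of all 17335 genes, 4850 had an unadjusted edgeR p under 0.05 against control, in either direction, and 4319 against vehicle.

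The knockout libraries compared with vehicle shelves gave the same 7 of these 8 members as higher, all but Atf4, with none lower, against 6.70% of all genes higher and 4.13% lower. The fold was 4.18 for Atf5, 3.78 for Atf3, 7.99 for Trib3, 14.1 for Nupr1, 25.1 for Chac1 and 2.44 for Sesn2. Chac1 is among the 7. Over the 8 members at the filter level in at least 3 libraries outside the knockout, 6 rose against vehicle. The comparisons with control and with vehicle share the knockout libraries, so they are not independent of each other.

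AzadC did not change any tested member detectably. None of the 9 passed against vehicle by edgeR, DESeq2 or limma-voom, and none had an unadjusted p under 0.05 by any of the 3 tools. Over all 17335 genes, 1105 had such an unadjusted p by edgeR, 1054 by DESeq2 and 1059 by limma-voom. At that share 0 of 9 is not unusual. The log2 changes of the 9 members ran from -0.38 for Chac1 to 0.68 for Nupr1, and edgeR adjusted p-values from 0.927 to 1. Over all genes, edgeR called 0.00577% higher and 0.00577% lower, 1 gene each, and DESeq2 called 76 higher and 6 lower. The 95% interval of the fold was 0.815 to 1.07 for Atf4, 0.719 to 1.21 for Atf5, 0.61 to 1.8 for Atf3, 0.667 to 1.16 for Ddit3, 0.523 to 1.97 for Trib3, 0.635 to 4.06 for Nupr1, 0.365 to 1.62 for Chac1, 0.792 to 1.3 for Sesn2 and 0.713 to 1.13 for Ppp1r15a. The intervals were widest for Nupr1, Chac1 and Trib3, so a change in either direction was bounded least closely for these low transcripts. Vehicle against control likewise called none of the 9 by the 3 tools, with log2 changes from -0.47 for Nupr1 to 0.19 for Ddit3, against 1.46% of all genes higher and 2.06% lower.

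The knockout effect was then tested against the AzadC effect, as the log2 change of knockout over control minus that of AzadC over vehicle. It passed for 6 of the 9 members, all with the knockout effect higher, against 2.20% of all genes in that direction and 2.20% in the other. Of the 6, Chac1 passed the filter on low counts mainly through its knockout level. The difference was 5.14 for Chac1, 2.54 for Trib3, 2.20 for Atf5, 2.01 for Atf3, 1.20 for Sesn2 and 1.01 for Ddit3. It was 0.41 for Atf4 (edgeR adjusted p = 0.0897), 2.66 for Nupr1 (0.0873) and 0.34 for Ppp1r15a (0.41). Over all genes, 168 to 439 were higher when 1 library was left out. The member count depended on single libraries, with 3 to 5 members passing when any 1 of the 12 libraries was left out. It was 3 without knockout library 2, AzadC library 1, vehicle library 1 or vehicle library 2, and Atf5, Chac1 and Sesn2 passed in every alternative fitted. With the replicate number as a block, 4 passed, and Atf3 (edgeR adjusted p = 0.066) and Ddit3 (0.0718) lost the call. In that fit 281 of all 17335 genes were higher. The block gives all 4 groups the same replicate effect, a pairing that the labels do not state. Same-numbered AzadC and vehicle libraries did not deviate together (correlations 0.0772, -0.254 and -0.156).

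Levels per transcript length (TPM, as deposited) place the members against each other. Atf4 was the highest in all groups, with 191 ± 14 TPM in knockout, 147 ± 2.06 TPM in AzadC, 161 ± 16.1 TPM in vehicle and 161 ± 15.2 TPM in control shelves (SD, n = 3 each). Atf5 ranked next in knockout shelves with 51.6 ± 12.2 TPM, whereas Ddit3 and Ppp1r15a ranked above it in the others, where it had 11.6 ± 1.16, 12.9 ± 0.906 and 12.7 ± 1.72 TPM in AzadC, vehicle and control shelves. In the knockout its libraries overlapped those of Ddit3, the next in order, so the order of these genes is not separated. Ddit3 had 43.0 TPM in knockout and 27.0 TPM in control shelves. In knockout shelves Ppp1r15a and Sesn2 followed, overlapping each other, and then Nupr1 (12.9 TPM), Trib3 (9.76 TPM) and Chac1 (9.38 TPM), which overlapped each other. Atf3 had 4.96 TPM there and Cebpb 0.50 TPM, each separated from its neighbour. In AzadC, vehicle and control shelves Trib3, Nupr1 and Atf3 lay between 1.08 and 1.68 TPM on average and overlapped, and Chac1 and Cebpb were at or under 0.383 TPM.

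**Figure D4:**
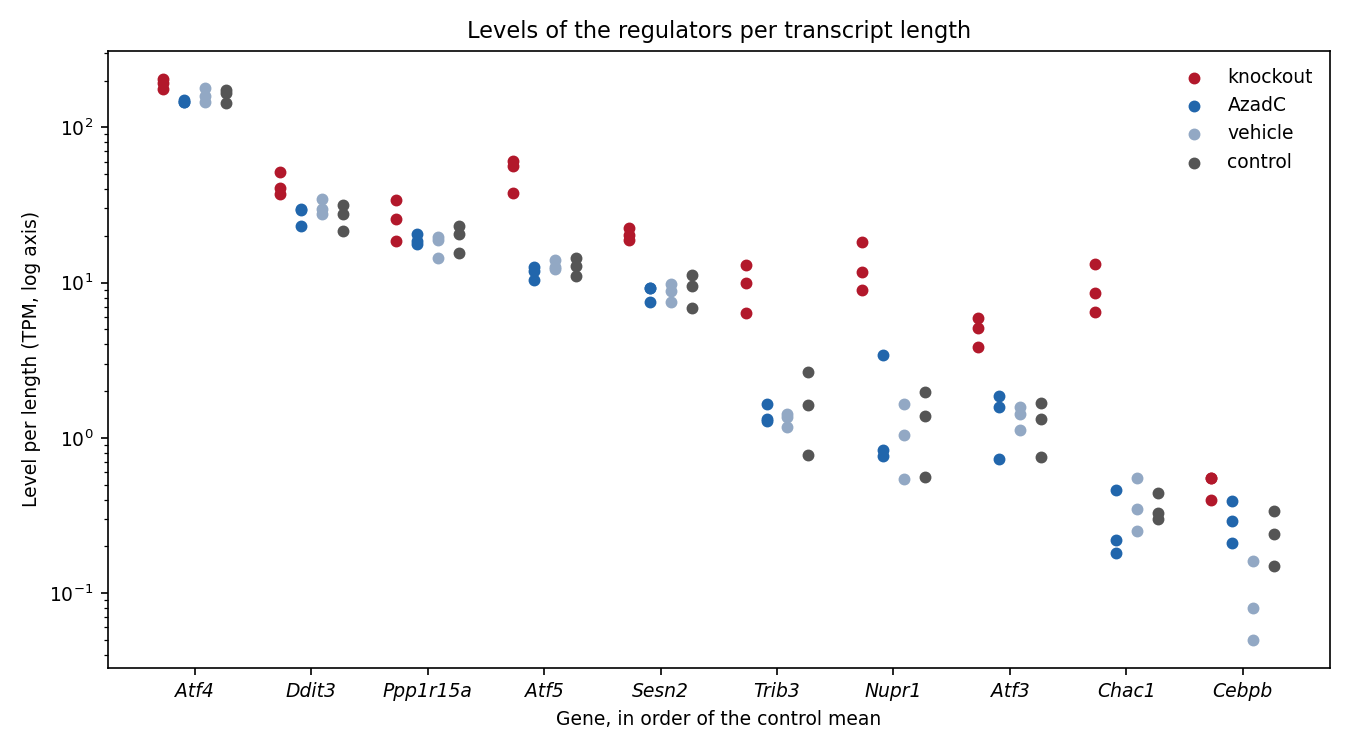
Level per transcript length (TPM, log axis) of the 10 regulators, ordered by their control mean, with 1 point per library and the groups knockout, AzadC, vehicle and control from left to right at each gene. Atf4 stands above all others in every group, and Atf5, Trib3, Nupr1, Atf3 and Chac1 are displaced upwards in the knockout.

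Knockout library 3 was the lowest of the 3 for 6 of the 9 tested members and the highest for none, while library 2 was the highest for 5 and library 1 for 4. Averaged over the tested members as centred log2 CPM, the knockout libraries stood at 1.3, 1.41 and 0.98, and the other 9 between -0.65 and -0.21. Across the 12 libraries, the Pearson correlation of a member with the mean of the other members was 0.982 for Atf5, 0.968 for Nupr1, 0.967 for Trib3, 0.965 for Chac1, 0.944 for Atf3, 0.921 for Sesn2, 0.855 for Atf4, 0.849 for Ddit3 and 0.543 for Ppp1r15a. The knockout libraries form a separate cluster, so these values mostly describe that contrast and are given with no test. The genes outside the set with the highest correlation with the mean of the members were Tuba3a, Trap1a and Lamp1 (0.987 each), Slc7a5 (0.984), and Serpinb1c, Noct, Wdr49 and Dnah6 (0.983 each). Noct, for example, had 863 CPM in knockout and 18.1 CPM in control shelves. Serpinb1c and Wdr49 had a mean of 0 CPM in control, AzadC and vehicle shelves. Tuba3a, Trap1a and Dnah6 had means of at most 0.124 CPM there. These 5 passed the filter on low counts only through the knockout, so their correlations reflect presence in the knockout and near absence elsewhere. They do not show shared regulation with the members. Those most like Atf4 alone were Lsp1 (0.956), Rtn2 (0.952), Myl9 (0.945) and Nhp2 (0.943).

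The leaders of the members' reference transcripts (GENCODE M21, first transcript) were scanned for upstream start codons, since reading frames ahead of the main one carry the translational control of Atf4. Atf4 and Ppp1r15a have 3 upstream ATG each, Atf5 and Ddit3 have 2 each, Atf3, Nupr1 and Sesn2 have 1 each, and Trib3, Chac1 and Cebpb have none. Of 18987 transcripts with a leader, 50.3% hold at least 1.

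Of 54 genes that ATF4 and CHOP are known to act on, 53 were tested, 34 rose against control, 0 fell and 19 did not pass. Fgf21, described below, is among the 34 and passed the filter on low counts only through its knockout libraries. Of the other 52, 33 rose, which is 63.5% of them against 7.83% of all genes higher and 6.43% lower. Their median log2 change was 0.40, against -0.0026 over all genes. Slc7a5, the light chain of the large neutral amino acid transporter, had 104 CPM in knockout and 24.8 CPM in control shelves (log2 change 2.06, edgeR adjusted p = 3.21e-07). Slc7a3, a cationic amino acid transporter, had 24.7 CPM in knockout and 1.3 CPM in control shelves (log2 change 4.27, edgeR adjusted p = 4.63e-07). Asns, asparagine synthetase, had 82.2 CPM in knockout and 24.4 CPM in control shelves (log2 change 1.76), and Slc7a1, a further cationic transporter, had 52.8 CPM in knockout and 20.6 CPM in control shelves (log2 change 1.36). The other effectors that passed with control counts, of 33 in all, had log2 changes between 0.22 and 4.27. Fgf21, a secreted hormone, had 22, 32 and 12 counts in knockout libraries and 0 in all AzadC, vehicle and control libraries, which makes it at least 28.7-fold higher when 3 counts are taken for the whole control group. Of the 19 that did not pass, Ddit4 had a log2 change of -0.46 (edgeR adjusted p = 0.0593) and Cebpg 0.06. Fgf21, Ddit4 and Cebpg were chosen after their values were seen.

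Other arms of the pathway were counted against the same shares of all genes. These were 7.83% higher and 6.43% lower against control, and 6.70% higher and 4.13% lower against vehicle. The lists were not tested against each other. Of 25 genes of the eIF2 kinases and of translation initiation control, all tested, 4 (16%) rose against control and 0 fell: Eif2s2, the beta subunit of eIF2 (log2 change 0.36), Eif2b3, a subunit of its exchange factor (0.32), Impact, an inhibitor of GCN2 activation (0.28), and Ppp1r15b (0.24). The 4 kinase genes Eif2ak1, Eif2ak2, Eif2ak3 and Eif2ak4 had log2 changes of 0.02, -0.08, 0.07 and -0.15, and none passed. Against vehicle 4 of the 25 (16%) rose and 0 fell: Eif2s2 (0.39), Impact (0.39), Ppp1r15b (0.23) and Eif2s1 (0.23). Eif2b3 did not pass there (0.12, edgeR adjusted p = 0.493). Among 23 genes of the endoplasmic reticulum chaperone and IRE1/ATF6 arms, 3 (13%) rose against control and 0 fell: the chaperones Canx (0.42), Hyou1 (0.36) and Hsp90b1 (0.28). Against vehicle 10 of the 23 (43.5%) rose. Of 24 p53 target genes, 8 (33.3%) rose against control, among them Eda2r (3.16), Cdkn1a (1.84) and Ccng1 (0.94), with Trp53 itself at 0.45. In the same comparison 1 (4.17%) fell, Plk2 (-0.54). Against vehicle 7 of the 24 (29.2%) rose and 0 fell, with Plk2 at -0.06 (edgeR adjusted p = 0.849). Bbc3 and Tnfrsf10b are on this list and on that of the effectors.

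Of 28 immediate early genes, 24 were tested. Against control 0 rose and 2 (8.33%) fell, beside 6.43% of all genes lower: Klf4 (log2 change -1.63) and Fosl2 (-0.60). Against vehicle the genes that passed were others. Egr1 (4.17% of those tested) rose (1.83, edgeR adjusted p = 0.0363), beside 6.70% of all genes higher. Nr4a2 (-1.06) and Dusp1 (-0.39), 8.33% of those tested, fell, beside 4.13% of all genes lower. Klf4 and Fosl2 had log2 changes of -0.20 and 0.01 there and did not pass. Of 22 bZIP partners of the members, 21 were tested. Against control 0 rose and 1 (4.76%) fell, Atf7 (-0.35), beside 6.43% of all genes lower. Against vehicle none of the 21 passed, with Atf7 at -0.03 (edgeR adjusted p = 0.87). Egr1, Nr4a2 and Dusp1 were chosen after their values were seen. In AzadC against vehicle, no gene of the effectors, the eIF2 and initiation list, the chaperone arm, the p53 targets, the immediate early genes or the bZIP partners passed, with median log2 changes between -0.12 and 0.05. For the difference of the knockout and AzadC effects, 28 of 53 effectors passed as higher and 0 as lower, against 2.20% of all genes in each direction. The 53 include Fgf21, which passed the filter on low counts only through its knockout libraries.

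**Figure D5:**
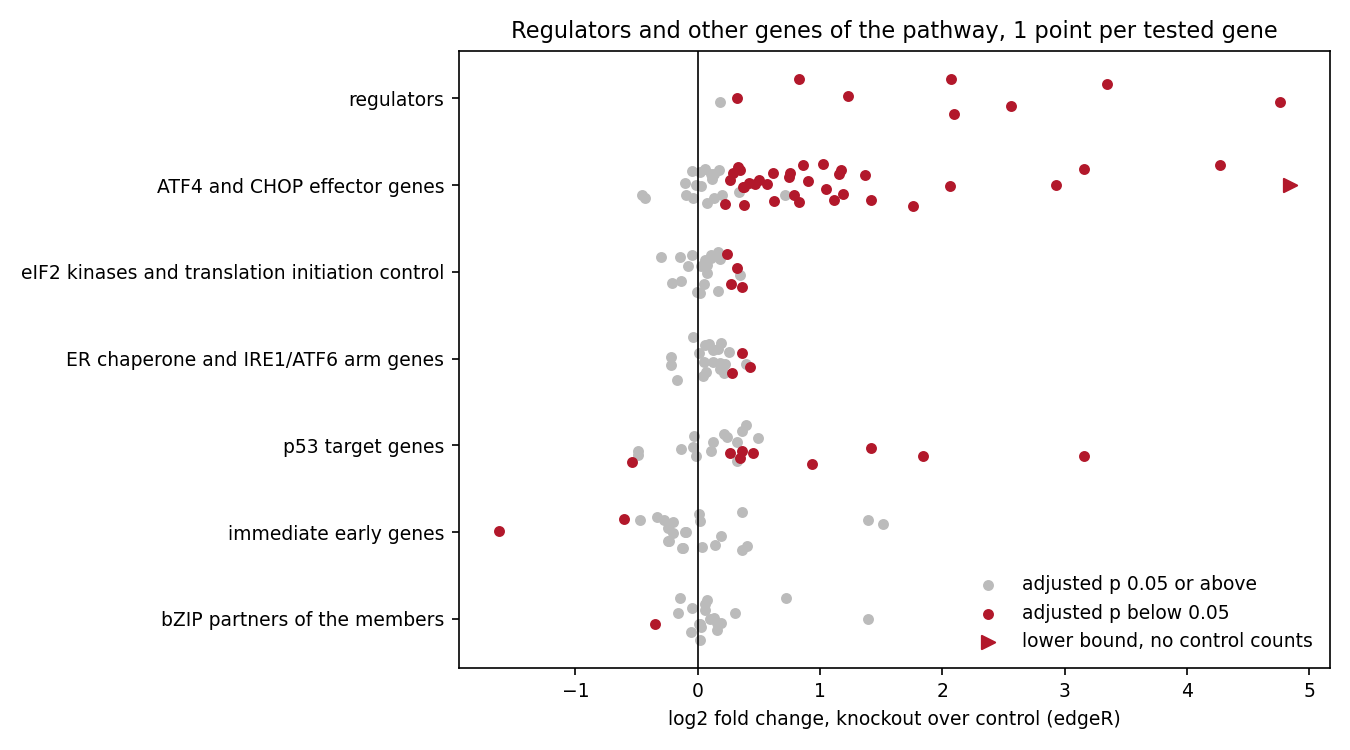
Log2 fold change of knockout over control for each tested regulator and for each tested gene of 6 related lists, with red points for an adjusted p under 0.05 and grey points for the others. The median was 2.07 for the 9 tested regulators and 1.65 without Chac1, which passed the filter on low counts mainly through the knockout. The median was 0.40 for the ATF4 and CHOP effector genes without Fgf21, 0.29 for the p53 targets and between -0.12 and 0.13 for the other 4 lists. The triangle marks the lower bound of Fgf21, which had no control counts.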

How the data were processed

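The members, the related gene lists and the tests were chosen with earlier results of these data known. Libraries were made with a NuGen mRNA kit, per the labels' protocols. The authors deposited expected counts and TPM per gene from RSEM, per the file headers; the submitters' processing notes list RSEM 1.3.1, STAR 2.7.0, DESeq2, Trim Galore and FastQC, and the build mm10. Of the values in a library, 90.6% to 93.1% were whole within 0.005; RSEM divides reads that fit several genes, so a value need not be an integer. Of 56691 gene IDs, 52073 are in GENCODE M21, the source of the coordinates.

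After rounding to whole numbers, expected counts were fitted with edgeR 4.0.16 (R 4.3.3): filterByExpr (17335 genes), TMM factors of 0.985 to 1.015, 1 mean per group over all 12 libraries, quasi-likelihood tests, and Benjamini-Hochberg adjustment over all genes with a threshold of 0.05. The common coefficient of biological variation was 0.152. SE is the absolute log2 change over the square root of F, and fold intervals are 95% intervals from the same fit. Depth was 12640536 to 33113790 counts per library. The tests were tried on simulated data first. No 2 libraries of a group differed by less than sampling noise (chi-square per degree of freedom 6.92 to 21.5), so each counted once. Same-numbered knockout and control libraries deviated together (correlations 0.517, 0.211 and 0.42), whereas same-numbered AzadC and vehicle libraries did not (0.0772, -0.254 and -0.156). The pairing of knockout and control comes from the data, since the labels do not state it, and the block changed no call in that comparison.

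All members are named; from each related list, the up to 4 genes with the smallest adjusted p against control, and the 8 and 4 genes most correlated with the members' mean and with Atf4 among genes above 1 CPM (Gm, Rik, Xist, Tsix and Y-linked names left out). Other names were chosen after their values were seen. Alternatives were DESeq2 1.42.0, limma-voom (limma 3.58.1), scaling by RLE or by the upper quartile, a filter of mean CPM above 1 or none, a fit of only the groups compared, a replicate block, and leaving out each library. Added after seeing the data was the block with only the knockout and control libraries. Promoter sequences are from RefSeq (GRCm38.p6).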

Additional observations from a re-analysis of the deposited data

Results flagged for a closer look

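The knockout effect (knockout over control) and the AzadC effect (AzadC over vehicle) differed for 6 members, by a test of the difference itself in edgeR over all 12 libraries. All 6 had the higher knockout effect, against 2.20% of all genes in that direction and 2.20% in the other. The difference in log2 change was 5.14 for Chac1 (adjusted p = 0.000769), 2.20 for Atf5 (0.000268), 1.20 for Sesn2 (0.0126), 2.54 for Trib3 (0.0329), 2.01 for Atf3 (0.0414) and 1.01 for Ddit3 (0.0453). In all 6 the 3 knockout libraries lay above the 9 other libraries, which held for 7.02% of all genes. The 6 were picked by a test on the same values, so this adds no separate support. Chac1 passed the filter on low counts mainly through its knockout level. With the replicate number as a block 4 of the 6 passed, without Atf3 (0.066) and Ddit3 (0.0718), and 3 to 5 members passed when any 1 of the 12 libraries was left out. Over all genes, 281 were higher with the block and 168 to 439 with 1 library left out. Summed macrophage markers were also highest in the knockout, at 377 to 412 CPM. They stood at 166 to 181 CPM in AzadC, 105 to 129 CPM in vehicle and 80.3 to 113 CPM in control libraries. Their AzadC range lay above that of vehicle. Among these 6 members the log2 change of AzadC over vehicle ran from -0.38 for Chac1 to 0.07 for Atf3. The part of the macrophage markers in these differences was not tested.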

How the results depend on the processing

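Of 681 values of single members under an alternative, 609 kept their direction and side of the threshold, 41 lost the call, 8 gained it and 23 changed sign, all 23 in comparisons where the member passed in neither fit. With 1 library left out, the log2 change of AzadC over vehicle ran from -0.22 to 0.35 for Atf3, -0.30 to 0.30 for Trib3, -0.16 to 0.96 for Nupr1 and -0.072 to 0.11 for Sesn2. That of vehicle over control ran from -0.061 to 0.098 for Atf4, -0.071 to 0.42 for Atf3, -0.067 to 0.16 for Atf5, -0.76 to 0.011 for Trib3, -0.27 to 0.38 for Chac1, -0.24 to 0.14 for Sesn2 and -0.14 to 0.073 for Ppp1r15a, which also changed sign with the replicate block (-0.0078). Over the alternatives, which tested 14725 to 30933 genes, 808 to 1598 genes were higher in the knockout against control and 716 to 1524 against vehicle. For AzadC over vehicle 0 to 102 genes were higher, and for vehicle over control 46 to 563. Members higher in the knockout numbered 7 to 8 against control and 6 to 8 against vehicle over the alternatives, and 0 both for AzadC over vehicle and for vehicle over control. With the replicate block the counts were 8, 7, 0 and 0, and 4 for the difference of the knockout and AzadC effects, where Atf3 (adjusted p = 0.066) and Ddit3 (0.0718) lost the call; it also lost Ddit3 against vehicle (0.0678) and gained Atf4 against vehicle (0.0255). For that difference the count was 6 in the main analysis, 8 by DESeq2 and without a filter, 5 by limma-voom, and 3 to 5 with 1 library left out. The number of all genes called higher moved too. It was 382 of 17335 in the main analysis, 755 by DESeq2, 526 by limma-voom and 704 of 30933 without a filter. With 1 library left out it was 168 to 439. Over 19 alternatives each, Atf3 lost the call in 10, Ddit3 in 12 and Trib3 in 7; the cause was not tested. The difference uses all 4 groups, so fitting only the groups compared adds nothing. Atf4 against vehicle also passed by DESeq2 (0.0204), without a filter (0.015) and without vehicle library 2 (0.0254), and for the difference Atf4 and Nupr1 passed by DESeq2 (0.0346 and 0.0246) and without a filter (0.0268 and 0.0166). Low counts limited Cebpb, which had 10 or fewer in every library.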
